A study of Mus musculus with 15 samples.

Results

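The comparison set livers of male C57BL/6J mice on a NASH diet, treated with a hairpin against Gpnmb, against livers of chow-fed mice that had received green fluorescent protein (GFP). It asked what of the diet response is left after knockdown. Its members were 6 of the 15 libraries of the series, 3 in each group, taken by their labels and joined from 2 deposited count tables on the gene identifier. The Gpnmb hairpin livers came from mice on an FPC NASH diet (a diet that produces non-alcoholic steatohepatitis) with sugar water for 16 weeks, and carried an adeno-associated virus of serotype 8 (AAV8) with the H1 promoter and the hairpin. The chow livers came from mice on standard chow and normal water for 16 weeks, and carried an AAV8 in which the liver-specific thyroxine binding globulin (TBG) promoter drove GFP. The strain, sex, tissue, viral serotype and 16 weeks were common to both groups, and the labels state no age. Diet, vector and knockdown differed together between them and cannot be told apart in this comparison. Values of 2 other groups of 3 libraries on the same NASH diet therefore stand beside it: scramble livers, with a scrambled hairpin in the H1 vector, and NASH GFP livers, with the TBG-GFP vector. The H1 promoter is a general promoter for short RNAs and is not specific to a cell type, and the labels do not say which liver cells the hairpin reached.

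Steatohepatitis combines fat storage in hepatocytes with the entry of monocyte-derived macrophages and the deposition of fibrillar matrix by stellate cells. Gpnmb encodes a transmembrane glycoprotein of lysosome-rich macrophages and is among the genes that mark lipid-associated macrophages in fatty liver. Hepatocytes answer dietary fat and cholesterol through the transcription factors SREBP2, which drives cholesterol synthesis when sterols are low, and PPARA, which drives fatty acid oxidation.

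Libraries of these 4 groups held 15276879 to 23467867 counts, with 16121073 to 18736403 in Gpnmb hairpin livers and 15276879 to 17983991 in chow livers. The defining hepatocyte markers albumin, transthyretin, apolipoproteins A1, A2 and B and Hnf4a were all detected, with albumin at 4.53% to 6.70% of a library's counts. Levels are given in CPM, the counts of a gene scaled to a common library total with trimmed mean of M values (TMM) factors. On the first principal component of 11796 genes (48.2% of variance), the Gpnmb hairpin libraries lay at -7.09, -2.09 and 1.98, against -20.5, -33.6 and -28.1 for scramble, -28.9, -19.3 and -19.7 for NASH GFP and 56.3, 44.5 and 56.6 for chow. On the second (19.3%), the Gpnmb hairpin libraries lay apart from the other 9, at 29.3 to 30.9. NASH GFP library 3 also stood apart from the other 2 of its group on this component, at -0.16 against -27.7 and -30.2. In bulk liver, fewer cells of a type and less RNA per cell cannot be told apart.

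**Figure D1:**
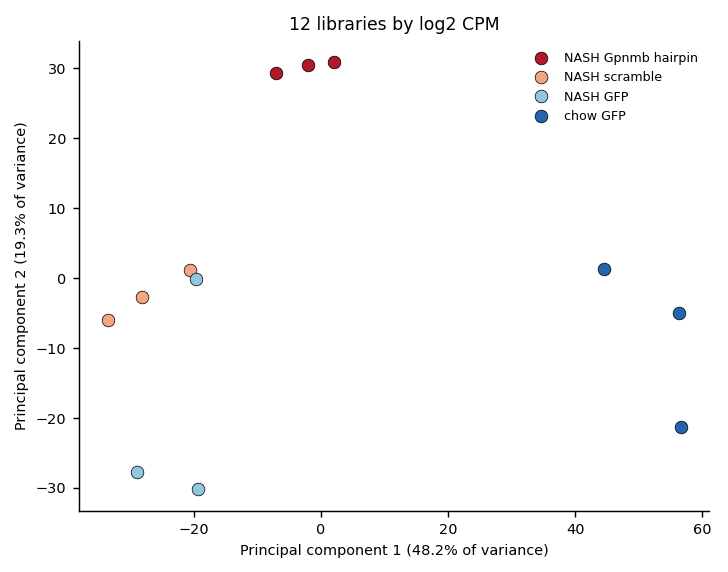
Scores of the 12 libraries on the first (horizontal) and second (vertical) principal components of log2 CPM, with the share of variance on each axis and 1 point per library. The 3 Gpnmb hairpin libraries sit between the other NASH libraries and the chow libraries on the first component and above all 9 others on the second, at 29.3 to 30.9.

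Gpnmb, the targeted gene (ENSMUSG00000029816, GRCm38 chromosome 6, 49036546 to 49070929), was far below the level of the other NASH livers in every Gpnmb hairpin library and still above chow. It stood at 1.45, 1.26 and 3.3 CPM in Gpnmb hairpin livers, against 26.1, 36.4 and 32.7 CPM in scramble livers. Gpnmb was at 40.4, 25.9 and 24.8 CPM in NASH GFP livers and 0.243, 0.149 and 0.483 CPM in chow livers. The Gpnmb hairpin and scramble libraries did not overlap, and neither did the Gpnmb hairpin and chow libraries, although hairpin library 3 was the highest of its group. The log2 fold change was -3.95 ± 0.26 (SE, edgeR adjusted p = 1.15e-05) in Gpnmb hairpin against scramble livers and 2.76 ± 0.60 (SE, edgeR adjusted p = 0.01) in Gpnmb hairpin against chow livers. Without hairpin library 3, the change against chow was 2.21 on the log2 scale and was no longer called (edgeR adjusted p = 0.0647).

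Against chow, 1176 of 14110 tested genes were called higher in Gpnmb hairpin livers (8.33%) and 1383 were called lower (9.8%), at an edgeR adjusted p under 0.05. Of these, 533 were at least 2-fold higher and 477 at least 2-fold lower. With library size alone in place of TMM, 2321 genes were called higher and 799 lower, a share of 74.4% called higher where TMM gave 46.0%. That scaling put the median of all tested genes at 0.21 on the log2 scale, where TMM put it at 0.0092. Scramble livers against the same chow libraries had 2416 genes called higher (16.5%) and 1880 called lower (12.8%) of 14677. NASH GFP livers had 1607 called higher (11.2%) and 838 called lower (5.82%) of 14388, also against these chow libraries. Under library size alone 83.8% of the scramble calls and 86.8% of the NASH GFP calls were higher (56.2% and 65.7% under TMM), with medians of all genes shifted by 0.29 and 0.24. Since the 3 comparisons share their chow libraries, they stand side by side and were not correlated. Leaving out hairpin library 1, 2 or 3 lowered the counts of the Gpnmb hairpin comparison to 593, 565 and 669 genes called higher and to 698, 684 and 830 called lower.

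The 8 genes with the highest changes against chow, among called genes with a mean of at least 1 on the log2 CPM scale and no overlap between groups, were Lepr, the leptin receptor, Cyp2a4, Ly6d, Cyp4a14, Rad51b, Acot2, Cidea and Cyp4a31. The Cyp4a and Acot genes encode enzymes of fatty acid oxidation and acyl-CoA hydrolysis, and Cidea a protein that enlarges lipid droplets. The 8 lowest held the cholesterol synthesis genes Fdps, Idi1 and Msmo1, the male-biased gene Selenbp2, and Camk4, Moxd1, Mup13 and Serpina9. Moxd1 lost its call in DESeq2 and without hairpin library 1 or 2 or chow library 1. Reads of the Cyp2a, Cyp4a, Acot and Mup genes may be shared within their families, since the labels do not say how such reads were counted. Lepr stood at 109, 179 and 123 CPM in Gpnmb hairpin livers, against 16, 14 and 15.6 CPM in scramble livers. Lepr was at 13, 26.6 and 28.7 CPM in NASH GFP livers and 1.76, 2.91 and 2.0 CPM in chow livers. All 3 Gpnmb hairpin libraries were far above the other 9. The change was 5.97 ± 0.27 (SE, edgeR adjusted p = 5.52e-07) against chow and 3.19 ± 0.17 (SE, edgeR adjusted p = 4.80e-06) against scramble. Ly6d, a small surface protein, stood at 14.1, 11.6 and 14.6 CPM in Gpnmb hairpin livers, against 26.6, 72.2 and 48.1 CPM in scramble livers. Ly6d was at 77.5, 106 and 37.9 CPM in NASH GFP livers and 0.0608, 0.298 and 0.552 CPM in chow livers. It rose in Gpnmb hairpin livers by 5.49 ± 0.41 (SE, edgeR adjusted p = 1.48e-05) against chow, and by 6.25 without chow library 3. Each of these libraries was nevertheless below every other NASH library. Rad51b, a gene of homologous recombination repair, had 18.7, 17.2 and 13.4 CPM in Gpnmb hairpin livers, against 0.608, 0.0745 and 0.62 CPM in chow livers, a change of 5.19 ± 0.39 (SE, edgeR adjusted p = 1.57e-05). Against scramble it was -0.29 ± 0.13 (SE, edgeR adjusted p = 0.127).

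**Figure D2:**
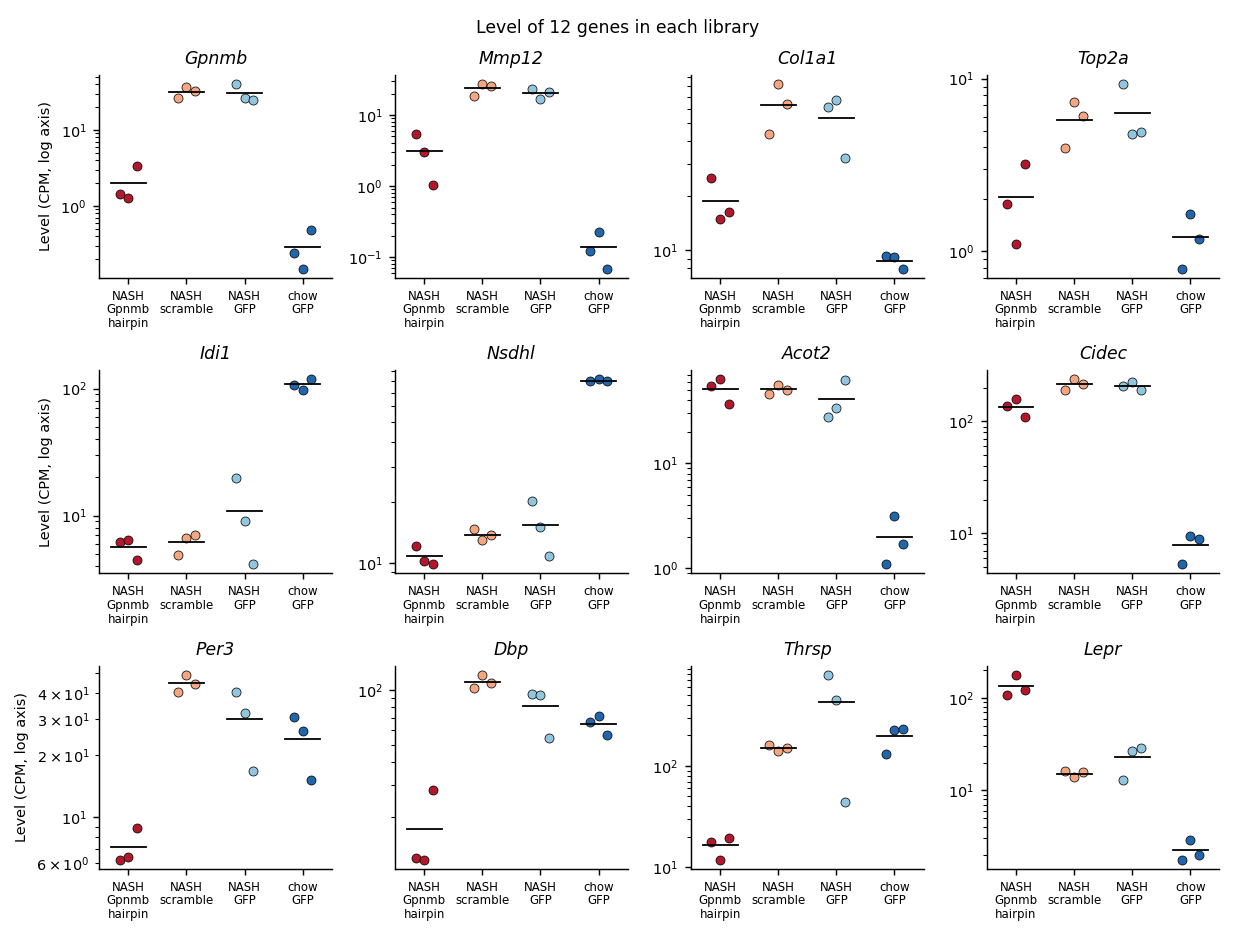
Level of 12 genes in CPM on log axes, with 1 point per library, a line at each group mean, and the groups NASH Gpnmb hairpin, NASH scramble, NASH GFP and chow GFP from left to right. Gpnmb, Mmp12, Col1a1 and Top2a are lower in Gpnmb hairpin than in scramble livers, Idi1 is low and Acot2 high in all 3 NASH groups, Per3, Dbp and Thrsp are lowest in Gpnmb hairpin livers, and Lepr is highest there.

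Genes that changed on the diet were counted by their call in Gpnmb hairpin against scramble livers, written here as under the hairpin. Other differences between these groups, such as the hour of collection, cannot be told apart from the hairpin. Their test shares no library with NASH GFP against chow. In that test 1813 of 14845 genes were called higher (12.2%) and 1788 lower (12%), a share of 50.3% higher that became 29.0% with library size alone, which shifted the median of all genes by -0.11. Of 14127 genes tested in both, 12.7% were called higher and 12.3% lower under the hairpin. Among the 1584 genes raised on the diet, 744 were lower under the hairpin (47.0% of these genes, and 42.8% of all 1740 called lower). A further 70 were higher (4.42%, and 3.90% of the 1793 called higher) and 770 were not called. Among the 803 genes lowered on the diet, 246 were higher under the hairpin (30.6%, and 13.7% of the 1793), 53 were lower (6.60%, and 3.05% of the 1740) and 504 were not called. The median log2 fold change under the hairpin was -0.57 for the diet-raised genes, whose median on the diet was 1.52, and 0.18 for the diet-lowered genes, whose median on the diet was -0.90.

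The size of these counts depended on single libraries. The 744 genes became 472 without scramble library 2 and 482 without scramble library 3. The 246 genes became 123 and 140 without NASH GFP libraries 1 and 2, 152 without scramble library 3 and 163 without chow library 1. The 70 genes became 31 without chow library 1, 43 without scramble library 3 and 44 without NASH GFP library 2. The 53 genes became 29 and 31 without NASH GFP libraries 1 and 2, 32 without scramble library 3 and 31 without chow library 1. Without NASH GFP library 3, which stood apart, the 4 counts were 712 (in place of 744), 258 (of 246), 57 (of 70) and 50 (of 53). Among the genes whose called change against scramble is given below, fitting the 4 groups together ended the calls of Cd163, Cd36, Cyp51, Ehhadh, Hp, Hsp90b1, Insig1, Mmp14, Mvk, Npas2 and Ppara.

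**Figure D3:**
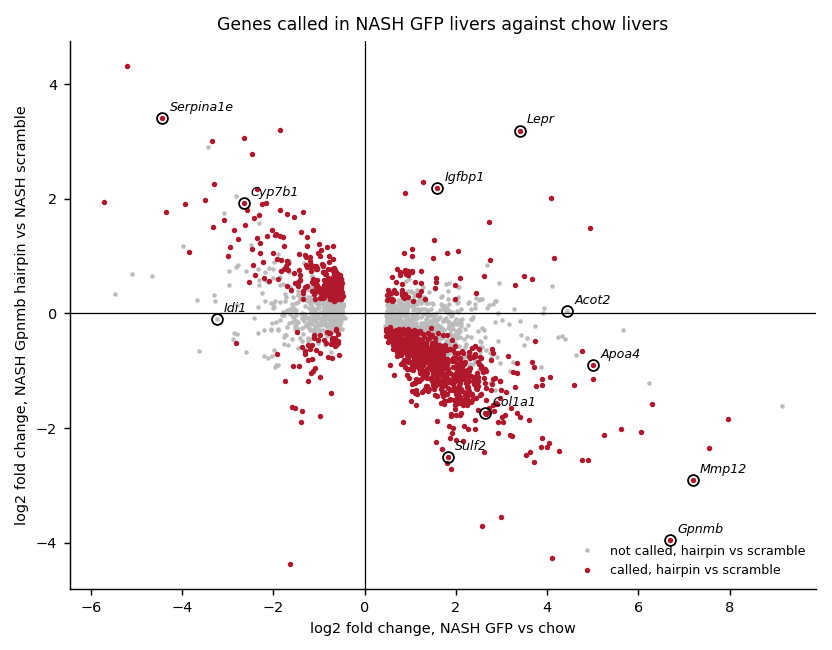
log2 fold change in NASH GFP against chow livers (horizontal) and in NASH Gpnmb hairpin against NASH scramble livers (vertical) for the 1584 genes raised and 803 lowered on the diet, 1 point per gene, with genes called under the hairpin in red. Red points on the right lie mostly below 0 (744 genes, against 70 above), and on the left mostly above 0 (246, against 53 below).

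Monocyte and macrophage genes were mostly not called against chow in Gpnmb hairpin livers, and most rose in the other NASH livers. Of 14 tested genes of this list, 3 rose against chow (Cybb, Csf1r and Adgre1), with a median log2 fold change of 0.53, against 0.0092 over all genes tested. Against the same chow libraries, 15 of 16 rose in scramble livers (median 1.82) and 15 of 15 in NASH GFP livers (median 1.90). Against scramble livers 14 of 16 fell under the hairpin (median -1.15, and 0.00092 over all genes). The 3 genes became 5 without chow library 1, 5 with the 4 groups in one fit and 6 with library size alone. The summed level of the 16 list genes was 215 to 288 CPM in Gpnmb hairpin livers, 463 to 578 CPM in scramble livers, 518 to 616 CPM in NASH GFP livers and 163 to 173 CPM in chow livers, and the Gpnmb hairpin libraries overlapped neither chow nor the other NASH groups. Cybb, the catalytic subunit of the phagocyte NADPH oxidase, stood at 20.5, 19.5 and 14.9 CPM in Gpnmb hairpin livers, against 30.6, 43.1 and 36.3 CPM in scramble livers. Cybb was at 41.8, 31.5 and 28.9 CPM in NASH GFP livers and 5.35, 8.27 and 8.48 CPM in chow livers. Its change was 1.33 ± 0.22 (SE, edgeR adjusted p = 0.00207) against chow and -0.98 ± 0.15 (SE, edgeR adjusted p = 0.00108) against scramble.

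Part of the lipid-associated macrophage genes rose. Of 17 tested, 9 rose and 1 fell in Gpnmb hairpin livers against chow (median 0.99), against 14 risen in scramble livers (median 2.03) and 15 in NASH GFP livers (median 2.46), and 10 of 17 fell and 2 rose (Fabp5 and Mmp14) under the hairpin against scramble. Both of the 2 lost their calls with library size alone and without hairpin library 1 or 2 or scramble library 1 or 3. Mmp12, macrophage elastase (ENSMUSG00000049723, GRCm38 chromosome 9, 7344381 to 7369499), stood at 5.39, 3.05 and 1.03 CPM in Gpnmb hairpin livers, against 18.4, 27.5 and 25.2 CPM in scramble livers. Mmp12 was at 22.9, 16.8 and 21.3 CPM in NASH GFP livers and 0.122, 0.224 and 0.0689 CPM in chow livers. The Gpnmb hairpin libraries spread widely among themselves and all lay between chow and the other NASH libraries. The changes were 4.47 ± 0.75 (SE, edgeR adjusted p = 0.00244) against chow, which became 3.85 without hairpin library 1, and -2.91 ± 0.36 (SE, edgeR adjusted p = 0.000408) against scramble, which became -3.52 without it. Clec7a, the beta-glucan receptor dectin-1, stood at 6.85, 7.31 and 5.3 CPM in Gpnmb hairpin livers, against 19.1, 27 and 25.4 CPM in scramble livers. Clec7a was at 31.3, 23.2 and 23.6 CPM in NASH GFP livers and 2.55, 1.86 and 2.14 CPM in chow livers. It lay between chow and the other NASH groups in all 3 Gpnmb hairpin libraries. It changed by 1.58 ± 0.27 (SE, edgeR adjusted p = 0.00248) against chow and -1.85 ± 0.16 (SE, edgeR adjusted p = 6.03e-05) against scramble. Trem2, a lipid-sensing receptor of these macrophages, stood at 1.03, 2.05 and 2.05 CPM in Gpnmb hairpin livers, against 7.56, 9.78 and 9.17 CPM in scramble livers. Trem2 was at 10.7, 10.3 and 9.73 CPM in NASH GFP livers and 0.729, 0.522 and 0.896 CPM in chow livers. All 3 Gpnmb hairpin libraries were just above chow and far below the other NASH libraries. The change of 1.27 ± 0.46 against chow was not called (SE, edgeR adjusted p = 0.084, 95% interval 0.24 to 2.29), and its change against scramble was -2.33 ± 0.25 (SE, edgeR adjusted p = 0.000177).

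Not every member of this list followed that order. Plin2, a lipid droplet coat protein that hepatocytes also make, stood at 1222, 1131 and 882 CPM in Gpnmb hairpin livers, against 976, 1095 and 1034 CPM in scramble livers. Plin2 was at 955, 1010.5 and 1109 CPM in NASH GFP livers and 258, 414 and 485 CPM in chow livers. All 3 NASH groups overlapped and lay above chow. In Gpnmb hairpin livers it rose by 1.502 ± 0.22 (SE, edgeR adjusted p = 0.001) against chow, and its change against scramble was 0.081 ± 0.11 (SE, edgeR adjusted p = 0.648). The matrix metalloproteinase Mmp14 had 67.1, 61 and 55 CPM in Gpnmb hairpin livers, against 31.2, 32.4 and 36.7 CPM in chow livers, a change of 0.88 ± 0.14 (SE, edgeR adjusted p = 0.00144), and 0.36 ± 0.094 (SE, edgeR adjusted p = 0.0183) against scramble. Atp6v0d2, a subunit of the lysosomal proton pump in macrophages, had 0.787, 0.421 and 1.19 CPM in Gpnmb hairpin livers, against 3.89, 1.86 and 2.41 CPM in chow livers, a change of -1.75 ± 0.48 (SE, edgeR adjusted p = 0.0278). This call was lost without hairpin library 1, hairpin library 2 or chow library 1. The summed level of the list, which Plin2 dominates, was 1117 to 1501 CPM in Gpnmb hairpin livers, against 410 to 672 CPM in chow livers.

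Genes of resident Kupffer cells moved in both directions. Of 11 tested, 6 rose and 1 fell against chow in Gpnmb hairpin livers (median 0.71), and the 6 became 3 without hairpin library 1 or 2. In scramble livers 7 rose and 1 fell against chow (median 0.92), and in NASH GFP livers 4 rose and 1 fell (median 0.85). Against scramble 2 rose and 3 fell under the hairpin. Cd163, a haemoglobin scavenger receptor, stood at 33.4, 30.6 and 29.4 CPM in Gpnmb hairpin livers, against 25.9, 14 and 20.1 CPM in scramble livers. Cd163 was at 7.71, 12.4 and 21 CPM in NASH GFP livers and 8.2, 14.3 and 9.72 CPM in chow livers. It was highest in the Gpnmb hairpin libraries, with changes of 1.55 ± 0.20 (SE, edgeR adjusted p = 0.000576) against chow and 0.66 ± 0.18 (SE, edgeR adjusted p = 0.0217) against scramble. The second call was lost without hairpin library 1 or 2 or scramble library 3. Cd5l, a secreted macrophage protein, changed by 1.20 ± 0.19 (SE, edgeR adjusted p = 0.00156) against chow and -0.98 ± 0.11 (SE, edgeR adjusted p = 0.000287) against scramble. The summed Kupffer level was 816 to 848 CPM in Gpnmb hairpin livers and 870 to 898 CPM in chow livers. It was 809 to 828 CPM in scramble livers and 675 to 878 CPM in NASH GFP livers. C6, the complement component that fell in this list, is also made by hepatocytes.

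Chemokine and interferon genes were mostly not called against chow. In the cytokine and chemokine list 3 of 11 tested rose and 1 fell in Gpnmb hairpin livers (median 0.52). Without hairpin library 1 the 3 became 1. In scramble livers 11 of 14 rose and 1 fell against chow, with a lowest change of -1.66. In NASH GFP livers 11 of 15 rose and 0 fell. Against scramble 10 of 16 fell under the hairpin. Vcam1, an adhesion molecule for leukocytes, stood at 22.3, 23.2 and 19 CPM in Gpnmb hairpin livers, against 34, 34.9 and 37.8 CPM in scramble livers. Vcam1 was at 45.9, 47.5 and 39.8 CPM in NASH GFP livers and 7.78, 7.53 and 10.4 CPM in chow livers. The Gpnmb hairpin values lay between chow and the other NASH groups, with changes of 1.34 ± 0.18 (SE, edgeR adjusted p = 0.000615) against chow and -0.71 ± 0.10 (SE, edgeR adjusted p = 0.00073) against scramble. Cxcl1, a neutrophil attractant, had 2.85, 3.36 and 2.0 CPM in Gpnmb hairpin livers, against 38, 10.5 and 16.6 CPM in chow livers, a change of -2.98 ± 0.43 (SE, edgeR adjusted p = 0.00107), which was -2.31 without chow library 1. In the interferon-stimulated list 2 of 23 rose (Oasl2 and Zbp1, median 0.099), against 16 in scramble and 11 in NASH GFP livers, and 18 of 23 fell under the hairpin against scramble. The 2 of 23 are a share near the 8.33% of all tested genes that were called higher against chow. Oasl2, a 2′-5′ oligoadenylate synthetase-like protein, stood at 8.24, 7.1 and 8.0 CPM in Gpnmb hairpin livers, against 10.5, 16.9 and 14.6 CPM in scramble livers. Oasl2 was at 12.2, 11.1 and 10.5 CPM in NASH GFP livers and 3.28, 5.44 and 2.0 CPM in chow livers. Its call of 1.14 ± 0.32 (SE, edgeR adjusted p = 0.0342) against chow was lost without hairpin library 1, 2 or 3 or chow library 1 or 3, and that of Zbp1 without hairpin library 2.

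Summed markers of other leukocytes also differed in level. The summed level of 8 B and plasma cell genes was 12.9 to 16.7 CPM in Gpnmb hairpin livers and 25.4 to 34.7 CPM in chow livers, and that of 12 T and NK cell genes 2.79 to 3.84 CPM, against 5.07 to 5.89 CPM in chow livers. Scramble livers were also below chow, at 16.5 to 18.6 CPM for B and plasma cell genes and 4.4 to 4.98 CPM for T and NK cell genes. NASH GFP livers were at 31.1 to 92 CPM and 7.67 to 10.1 CPM. The 6 neutrophil genes listed in both tables, of 8, summed to 2.76 to 4.91 CPM in Gpnmb hairpin livers, against 1.31 to 2.55 CPM in chow livers, where the defining markers Camp and Ltf were at 0. The neutrophil sums were higher in the other NASH livers, at 5.15 to 9.07 CPM in scramble and 6.67 to 8.06 CPM in NASH GFP livers. The part of these cell type markers in the immune gene results was not tested.

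As a list, matrix genes had a median change between chow and the other NASH livers, and most were lower under the hairpin than under the scramble. Of 25 tested extracellular matrix genes, 9 rose against chow (median 0.61), while 27 of 28 rose in scramble livers (median 1.60) and 26 of 27 in NASH GFP livers (median 1.74). Against scramble livers 26 of 28 fell under the hairpin (median -0.92). The 9 became 3, 5 and 4 without hairpin libraries 1, 2 and 3 and 5, 5 and 4 without chow libraries 1, 2 and 3. The 26 became 17 without hairpin library 2, 17 without scramble library 2 and 16 without scramble library 3, and 17 with the 4 groups in one fit. With library size alone the 9 became 14.

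Col1a1, a chain of type I collagen (ENSMUSG00000001506, GRCm38 chromosome 11, 94936224 to 94953042), stood at 24.9, 14.8 and 16.2 CPM in Gpnmb hairpin livers, against 43.4, 82.5 and 63.5 CPM in scramble livers. Col1a1 was at 61.8, 67.2 and 32.2 CPM in NASH GFP livers and 9.3, 9.17 and 7.93 CPM in chow livers. The Gpnmb hairpin libraries lay above all chow libraries and below all libraries of the other NASH groups, with changes of 1.09 ± 0.22 (SE, edgeR adjusted p = 0.00623) against chow and -1.74 ± 0.23 (SE, edgeR adjusted p = 0.00065) against scramble. Col3a1, the main chain of type III collagen, stood at 62.5, 33 and 40.2 CPM in Gpnmb hairpin livers, against 98.3, 159 and 129 CPM in scramble livers. Col3a1 was at 160.3, 169.6 and 83.9 CPM in NASH GFP livers and 33.1, 31.8 and 33.8 CPM in chow livers. In Gpnmb hairpin livers it lay at or above the chow range and below the other NASH libraries. The change of 0.47 ± 0.21 was not called (SE, edgeR adjusted p = 0.143, 95% interval 0.014 to 0.93), and the change against scramble was -1.49 ± 0.22 (SE, edgeR adjusted p = 0.00107). Sparc, a collagen-binding glycoprotein, had a change of 0.04 ± 0.15 against chow that was not called (SE, edgeR adjusted p = 0.882, 95% interval -0.29 to 0.37). Against scramble the change of Sparc was -1.07 ± 0.12 (SE, edgeR adjusted p = 0.000279). Col14a1, a fibril-associated collagen, and Bgn, a small proteoglycan, had the smallest p against chow among these genes. Bgn stood at 123, 124 and 129 CPM in Gpnmb hairpin livers, against 131, 182 and 158 CPM in scramble livers. Bgn was at 151, 184 and 121 CPM in NASH GFP livers and 75.8, 80.2 and 72.3 CPM in chow livers. Every Gpnmb hairpin library lay above chow, with a change of 0.74 ± 0.12 (SE, edgeR adjusted p = 0.00221), and the change of -0.30 against scramble was not called (edgeR adjusted p = 0.0571).

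Some stellate cell and endothelial genes were above chow. Of 14 stellate and myofibroblast genes 5 rose and 1 fell (median 0.26), and of 16 sinusoidal endothelial genes 6 rose (median 0.39). The 5 became 3 without hairpin library 1 or 3, and the 6 became 2 without hairpin library 1 and 3 without hairpin library 3. In scramble livers 10 of the 14 stellate genes rose against chow (median 0.85), and 8 of 14 fell under the hairpin against scramble (median -0.46), or 5 without scramble library 2 or 3. Of the 16 endothelial genes 11 rose in scramble livers (median 0.68) and 4 in NASH GFP livers (median 0.43). Against scramble 5 of these 16 fell and 0 rose under the hairpin (median -0.26). Reln, reelin, which stellate cells secrete in liver, stood at 114, 104 and 113 CPM in Gpnmb hairpin livers, against 112, 108 and 107 CPM in scramble livers. Reln was at 79, 53.9 and 67.2 CPM in NASH GFP livers and 45.4, 46.9 and 44.7 CPM in chow livers. The Gpnmb hairpin and scramble libraries were close together and far above chow, with changes of 1.29 ± 0.12 (SE, edgeR adjusted p = 7.14e-05) against chow and 0.044 ± 0.067 against scramble (SE, edgeR adjusted p = 0.676). Lyve1, a hyaluronan receptor of sinusoidal endothelium, had 24.8, 11.5 and 13.9 CPM in Gpnmb hairpin livers, against 2.98, 5.89 and 7.17 CPM in chow livers, a change of 1.67 ± 0.35 (SE, edgeR adjusted p = 0.00751). Summed stellate markers were at 268 to 295 CPM in Gpnmb hairpin livers, 329 to 385 CPM in scramble livers, 287 to 352 CPM in NASH GFP livers and 152 to 181 CPM in chow livers.

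Sulf2, an enzyme that edits heparan sulfate, overlapped the range of chow. It stood at 11.1, 6.68 and 10.1 CPM in Gpnmb hairpin livers, against 54.6, 52.5 and 52.4 CPM in scramble livers. Sulf2 was at 35.6, 38.2 and 39.95 CPM in NASH GFP livers and 10.9, 13.9 and 8.2 CPM in chow livers. Gpnmb hairpin and chow libraries overlapped, and all other NASH libraries were higher. Its change was -0.23 ± 0.25 against chow (SE, edgeR adjusted p = 0.566, 95% interval -0.80 to 0.33) and -2.50 ± 0.15 (SE, edgeR adjusted p = 6.27e-06) against scramble.

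Of 16 tested proliferation genes, 0 were called against chow in Gpnmb hairpin livers by edgeR, 0 passed an unadjusted p under 0.05, and DESeq2 called 0 of 20 and limma-voom 0 of 16 (edgeR median 0.053). In scramble livers 10 of 20 rose against the same chow libraries and in NASH GFP livers 10 of 18, and 10 of 20 fell under the hairpin against scramble. The last count was 6 without scramble library 2 or 3. Top2a, the topoisomerase of dividing cells, stood at 1.88, 1.1 and 3.19 CPM in Gpnmb hairpin livers, against 3.96, 7.31 and 6.08 CPM in scramble livers. Top2a was at 9.34, 4.79 and 4.89 CPM in NASH GFP livers and 0.79, 1.64 and 1.17 CPM in chow livers. Gpnmb hairpin and chow libraries overlapped. The change was 0.80 ± 0.48 against chow (SE, edgeR adjusted p = 0.279) and -1.47 ± 0.35 (SE, edgeR adjusted p = 0.0126) against scramble, the second call lost without scramble library 2.

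**Figure D4:**
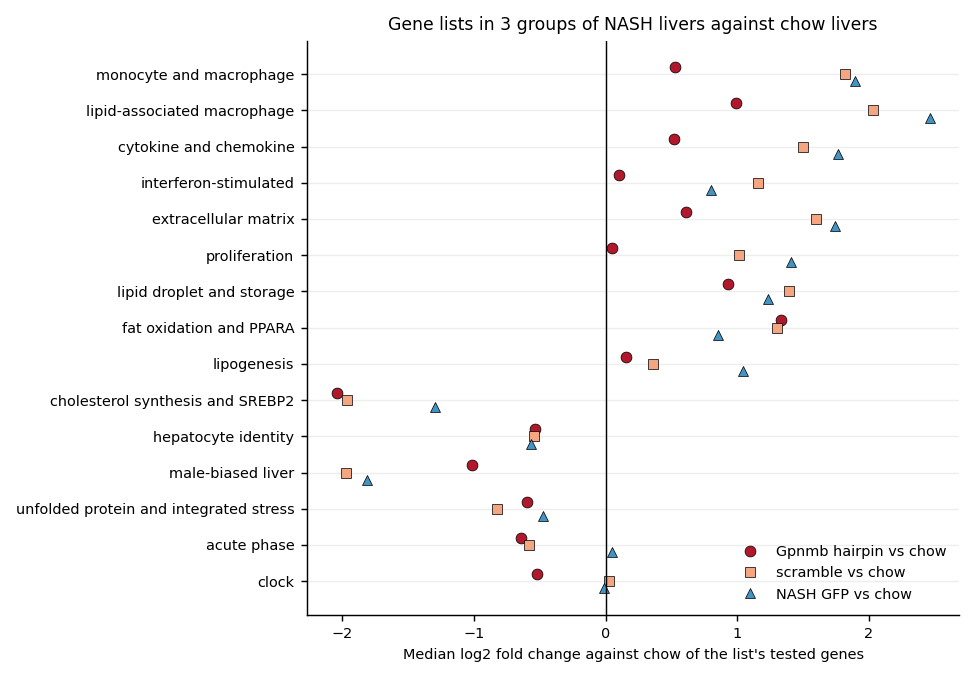
Median log2 fold change against chow of the tested members of selected gene lists, 1 row per list, for Gpnmb hairpin (circles), scramble (squares) and NASH GFP livers (triangles), all set against the same 3 chow libraries. Immune, matrix and proliferation lists have lower medians in Gpnmb hairpin livers (0.53 against 1.82 and 1.90 for monocytes and macrophages), while the medians of cholesterol synthesis and fat oxidation are close between Gpnmb hairpin and scramble livers (-2.04 against -1.97, and 1.33 against 1.31).

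Cholesterol synthesis genes were far below chow in Gpnmb hairpin livers, and most were not called against scramble livers. Of 25 tested members of the cholesterol synthesis and SREBP2 list, 23 fell in Gpnmb hairpin livers (median -2.04), 23 fell in scramble livers (median -1.97) and 16 fell in NASH GFP livers (median -1.30). Against scramble 5 of 24 fell and 3 rose under the hairpin, with a median of -0.023 on the log2 scale. The 5 became 9 with library size alone, and with the 4 groups in one fit 1 fell and 1 rose. In this test 14 of 24 had an unadjusted p under 0.05 by edgeR. The summed level of the list was 1457 to 1581 CPM in Gpnmb hairpin livers, below the 1832 to 1965 CPM of scramble livers. It was 1596 to 3052 CPM in NASH GFP livers and 4078 to 4498 CPM in chow livers. Idi1, isopentenyl-diphosphate isomerase (ENSMUSG00000058258, GRCm38 chromosome 13, 8885501 to 8892451), stood at 6.18, 6.41 and 4.49 CPM in Gpnmb hairpin livers, against 4.88, 6.61 and 6.99 CPM in scramble livers. Idi1 was at 19.7, 9.0 and 4.14 CPM in NASH GFP livers and 107, 97.5 and 118 CPM in chow livers. Every NASH library was below every chow library, and the changes were -4.22 ± 0.18 (SE, edgeR adjusted p = 5.35e-07) against chow and -0.095 ± 0.20 against scramble (SE, edgeR adjusted p = 0.775). The 95% interval of the change of Idi1 against scramble was -0.54 to 0.35.

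Along the pathway, Hmgcs1, the synthase that makes HMG-CoA (ENSMUSG00000093930, GRCm38 chromosome 13, 119690379 to 119708260), stood at 80.5, 63 and 66.3 CPM in Gpnmb hairpin livers, against 64.6, 69.1 and 69.5 CPM in scramble livers. Hmgcs1 was at 139, 101 and 69.5 CPM in NASH GFP livers and 346, 262 and 435 CPM in chow livers. The Gpnmb hairpin and scramble libraries overlapped and were all below chow, with a change of -2.29 ± 0.19 (SE, edgeR adjusted p = 2.53e-05). Mvk, mevalonate kinase, stood at 3.39, 4.21 and 4.05 CPM in Gpnmb hairpin livers, against 5.59, 7.71 and 6.04 CPM in scramble livers. Mvk was at 8.46, 7.56 and 5.38 CPM in NASH GFP livers and 32, 17.6 and 33.8 CPM in chow livers. All 3 Gpnmb hairpin libraries were below every other library, with changes of -2.82 ± 0.25 (SE, edgeR adjusted p = 4.65e-05) against chow and -0.71 ± 0.19 (SE, edgeR adjusted p = 0.0229) against scramble. The second call was lost without hairpin library 1 or scramble library 2 or 3. Nsdhl, a sterol dehydrogenase on chromosome X, stood at 12.2, 10.3 and 9.84 CPM in Gpnmb hairpin livers, against 14.6, 12.9 and 13.7 CPM in scramble livers. Nsdhl was at 20.2, 15.1 and 10.8 CPM in NASH GFP livers and 79.5, 81.5 and 79.7 CPM in chow livers. Every Gpnmb hairpin library was far below chow, with a change of -2.88 ± 0.14 (SE, edgeR adjusted p = 9.17e-07).

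NASH GFP libraries 1 and 3 differed widely in Idi1, at 19.7, 9.0 and 4.14 CPM over the 3 libraries, a wider spread than that of Gpnmb hairpin livers. Cyp51, a sterol demethylase, was among the 3 members that rose under the hairpin against scramble, at 0.84 ± 0.10 (SE, edgeR adjusted p = 0.000351) against scramble and -2.76 ± 0.14 (SE, edgeR adjusted p = 9.17e-07) against chow. Insig1, which helps hold SREBP2 in the endoplasmic reticulum, was another, at 0.50 ± 0.093 (SE, edgeR adjusted p = 0.00365) against scramble and -2.27 ± 0.14 (SE, edgeR adjusted p = 4.72e-06) against chow. Hsd17b7, a reductase of the pathway, was not called against chow, at -0.36 ± 0.13 (SE, edgeR adjusted p = 0.0844). Fdps, which had the lowest fold change of the list (-5.14), has processed pseudogenes that may share its reads, and its value is uncertain.

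Since these genes moved together, RefSeq promoter windows (build GRCm38.p6, 250 bases before to 50 after a start within 1000 bases of the 5′ end of the deposited gene) were searched on both strands for the CCAAT box (CCAAT) and a sterol regulatory element (TCACNCCAC), neither of which contains the other. Windows were found for 16 of the 25 list members and for 12967 genes in all. CCAAT was present in 14 of the 16 windows (87.5%), against 4927 of the 12967 (38.0%) and 10 of 14 windows of the clock genes described further on (71.4%). The sterol element letters were present in 1 of the 16 (6.25%), against 159 of all (1.23%). The 200 bases upstream of the start are shown for Hmgcs1 (chr13:119690151-119690350), Mvk (chr5:114444069-114444268) and Nsdhl (chrX:72918321-72918520), all on the plus strand, as 3 members low in every Gpnmb hairpin library, with the motif letters of either strand in capitals.
Hmgcs1: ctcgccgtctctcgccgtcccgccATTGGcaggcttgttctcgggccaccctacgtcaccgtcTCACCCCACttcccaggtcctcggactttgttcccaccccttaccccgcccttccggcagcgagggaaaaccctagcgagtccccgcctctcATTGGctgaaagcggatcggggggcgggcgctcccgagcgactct
Mvk: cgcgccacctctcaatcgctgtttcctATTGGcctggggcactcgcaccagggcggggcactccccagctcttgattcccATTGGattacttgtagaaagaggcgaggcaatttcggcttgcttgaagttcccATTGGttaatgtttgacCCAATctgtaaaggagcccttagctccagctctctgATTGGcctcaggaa
Nsdhl: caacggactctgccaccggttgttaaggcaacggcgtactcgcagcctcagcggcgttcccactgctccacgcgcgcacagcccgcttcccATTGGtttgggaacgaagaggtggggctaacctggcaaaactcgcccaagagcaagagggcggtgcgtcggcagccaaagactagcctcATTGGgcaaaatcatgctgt
Hmgcs1 holds the single sterol element of the set beside 2 CCAAT boxes read as ATTGG, Mvk holds 5 CCAAT boxes and Nsdhl 2 in the bases shown. These 3 are examples and do not stand for the whole list. The upstream bases of Idi1 (145 bases), Cyp51, Acat2 and Dhcr7 held neither motif. A match is a description of letters and not a site of binding.

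Fat oxidation genes were above chow in Gpnmb hairpin livers, and 14 of 26 were not called against scramble livers by edgeR. Of 26 tested members of the fat oxidation and PPARA list, 21 rose in Gpnmb hairpin livers (median 1.33), 23 rose in scramble livers (median 1.31) and 16 rose in NASH GFP livers (median 0.85). Against scramble, 9 rose further under the hairpin and 3 fell (median 0.13), and with the 4 groups in one fit 0 rose and 1 fell. DESeq2 called 10 higher and 3 lower. The summed level of the 26 genes was 24598 to 28007 CPM in Gpnmb hairpin livers, above the 19659 to 22059 CPM of scramble livers. It was 13777.5 to 23110 CPM in NASH GFP livers and 8056 to 10837 CPM in chow livers. Ppara itself stood at 273, 293 and 288 CPM in Gpnmb hairpin livers, against 233, 224 and 223 CPM in scramble livers. Ppara was at 169, 158 and 168 CPM in NASH GFP livers and 108, 141 and 43.9 CPM in chow livers. Gpnmb hairpin livers were above every other library, and chow library 3 was far below the other 2 of its group. The change was 1.55 ± 0.32 (SE, edgeR adjusted p = 0.00774) against chow and 0.35 ± 0.065 (SE, edgeR adjusted p = 0.00356) against scramble.

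Acot2, a mitochondrial acyl-CoA thioesterase (ENSMUSG00000021226, GRCm38 chromosome 12, 83987861 to 83993873), stood at 54.6, 63.5 and 37 CPM in Gpnmb hairpin livers, against 45.9, 56.1 and 50.6 CPM in scramble livers. Acot2 was at 28, 33.6 and 63 CPM in NASH GFP livers and 1.09, 3.13 and 1.72 CPM in chow livers. All NASH groups overlapped and lay far above chow, with 4.74 ± 0.33 (SE, edgeR adjusted p = 9.65e-06) against chow and 0.045 ± 0.16 against scramble (SE, edgeR adjusted p = 0.864, 95% interval -0.31 to 0.40). Ehhadh, the peroxisomal bifunctional enzyme, stood at 2191, 2549 and 1806 CPM in Gpnmb hairpin livers, against 1567, 1578 and 1544 CPM in scramble livers. Ehhadh was at 826, 814 and 1852 CPM in NASH GFP livers and 230.2, 336 and 341 CPM in chow livers. It was highest in Gpnmb hairpin livers except for an overlap with 1 NASH GFP library, and changed by 2.87 ± 0.19 (SE, edgeR adjusted p = 7.49e-06) against chow and 0.50 ± 0.11 (SE, edgeR adjusted p = 0.00875) against scramble, the second lost without scramble library 3. Cpt1a, which admits fatty acids to mitochondria, had 1073, 1147 and 1002 CPM in Gpnmb hairpin livers, against 399, 467 and 318 CPM in chow livers, a change of 1.46 ± 0.16 (SE, edgeR adjusted p = 0.000197), and 0.10 ± 0.075 against scramble (SE, edgeR adjusted p = 0.386). Fgf21, a hormone made by liver under PPARA, had 19.3, 20.8 and 13.4 CPM in Gpnmb hairpin livers, against 0.365, 1.86 and 2.34 CPM in chow livers, a change of 3.59 ± 0.43 (SE, edgeR adjusted p = 0.00033).

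Ucp2, a mitochondrial carrier that macrophages also make, stood at 53.9, 53.2 and 45.6 CPM in Gpnmb hairpin livers, against 75.2, 114 and 96.7 CPM in scramble livers. Ucp2 was at 80.6, 73.3 and 72.2 CPM in NASH GFP livers and 13, 23.2 and 21.3 CPM in chow livers. It lay between chow and scramble in all 3 Gpnmb hairpin libraries, with changes of 1.43 ± 0.20 (SE, edgeR adjusted p = 0.000876) against chow and -0.89 ± 0.13 (SE, edgeR adjusted p = 0.00115) against scramble. Of the Cyp4a genes, Cyp4a14 had 3944, 5162 and 4152 CPM in Gpnmb hairpin livers, against 4.68, 132 and 169 CPM in chow livers, where chow library 1 was far below the other 2. Its change was 5.47 ± 0.90 (SE, edgeR adjusted p = 0.00219), and 4.88 without chow library 1. Reads shared within the Acot and Cyp4a families make the split between their members uncertain. The 5 members not called against chow were Slc25a20, Acadm, Angptl4, Acadvl and Creb3l3.

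**Figure D5:**
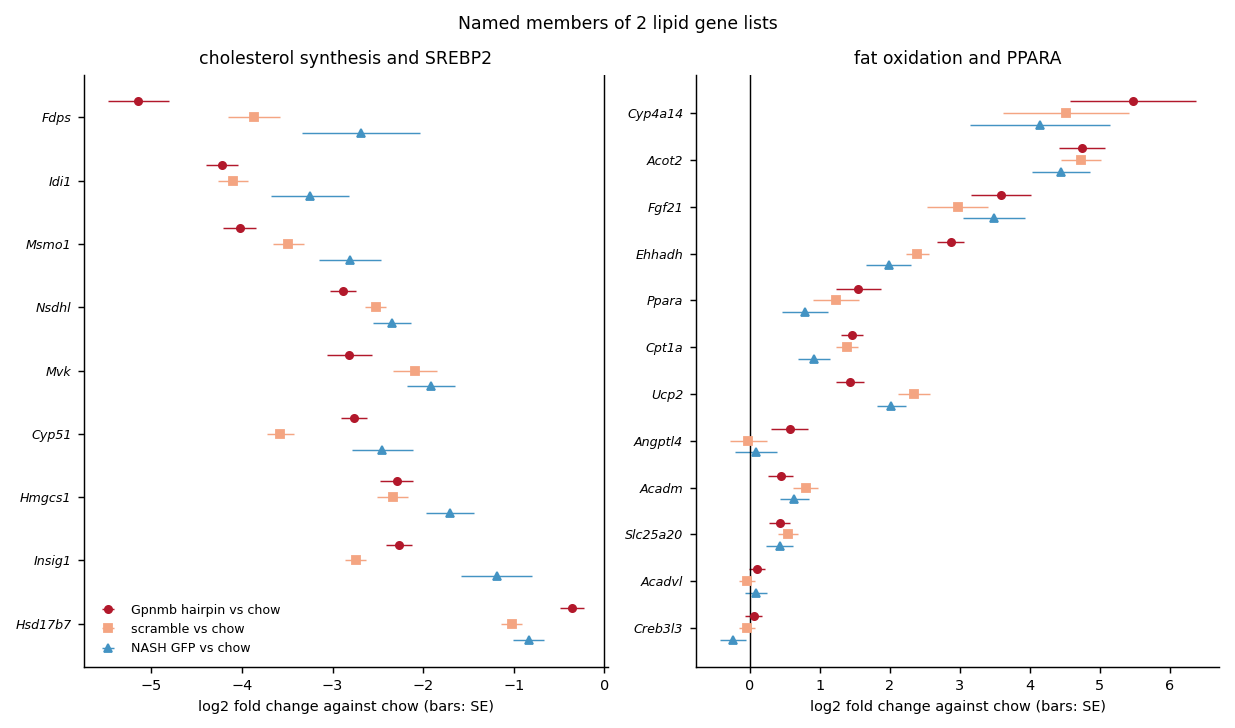
log2 fold change against chow with its SE for the genes described by name from the cholesterol synthesis and SREBP2 list (left) and the fat oxidation and PPARA list (right), in Gpnmb hairpin (circles), scramble (squares) and NASH GFP livers (triangles), sharing the chow libraries. In Gpnmb hairpin livers the cholesterol genes lie below 0, with Fdps lowest at -5.14, and most fat oxidation genes lie above 0.

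Part of the fat storage genes rose against chow in Gpnmb hairpin livers, and some were below their level in scramble livers. Of 20 tested lipid droplet and storage genes 9 rose and 1 fell against chow in Gpnmb hairpin livers (median 0.93), against 15 of 21 risen in scramble livers (median 1.39) and 13 of 20 in NASH GFP livers (median 1.23), and 9 of 21 fell under the hairpin. Cidec, a protein that fuses lipid droplets (ENSMUSG00000030278, GRCm38 chromosome 6, 113424634 to 113435760), stood at 137, 158 and 109 CPM in Gpnmb hairpin livers, against 191, 238 and 218 CPM in scramble livers. Cidec was at 205, 226 and 193 CPM in NASH GFP livers and 5.29, 9.46 and 8.96 CPM in chow livers. The 3 NASH groups were all far above chow and the Gpnmb hairpin libraries the lowest of them, with changes of 4.11 ± 0.24 (SE, edgeR adjusted p = 2.18e-06) against chow and -0.66 ± 0.12 (SE, edgeR adjusted p = 0.00397) against scramble. Its relative Cidea stood at 20.4, 7.04 and 2.38 CPM in Gpnmb hairpin livers, against 37.3, 61.2 and 53.1 CPM in scramble livers. Cidea was at 60.1, 86.5 and 68.2 CPM in NASH GFP livers and 0, 0.671 and 0.552 CPM in chow livers. The Gpnmb hairpin libraries differed widely among themselves. The change was 4.66 ± 0.88 (SE, edgeR adjusted p = 0.00457) against chow and -2.35 ± 0.49 (SE, edgeR adjusted p = 0.00651) against scramble. Against chow it was 3.57 without hairpin library 1 and 4.002 without chow library 1, and limma-voom did not call it. Against scramble it was -3.40 without hairpin library 1. Lpl, lipoprotein lipase, stood at 126, 96.8 and 87.3 CPM in Gpnmb hairpin livers, against 80.5, 119.7 and 99 CPM in scramble livers. Lpl was at 105, 154 and 149 CPM in NASH GFP livers and 34.8, 32 and 30.3 CPM in chow livers. All NASH libraries were above all chow libraries, with a change in Gpnmb hairpin livers of 1.69 ± 0.16 (SE, edgeR adjusted p = 7.94e-05) against chow and 0.075 ± 0.15 against scramble (SE, edgeR adjusted p = 0.764). Cd36, a fatty acid uptake receptor, rose by 2.38 ± 0.28 (SE, edgeR adjusted p = 0.000309) against chow, with a change of -0.62 ± 0.071 (SE, edgeR adjusted p = 0.000263) against scramble. Dgat2, which makes triglyceride, had changes of -0.59 ± 0.12 (SE, edgeR adjusted p = 0.00568) against chow and -0.42 ± 0.071 (SE, edgeR adjusted p = 0.0021) against scramble. Fabp4, a fatty acid binding protein of adipocytes and macrophages, stood at 10.2, 6.94 and 5.57 CPM in Gpnmb hairpin livers, against 17.3, 33 and 27.8 CPM in scramble livers. Fabp4 was at 53.1, 92.2 and 23.9 CPM in NASH GFP livers and 4.86, 6.78 and 8.89 CPM in chow livers. It overlapped chow in Gpnmb hairpin livers, with changes of 0.17 ± 0.29 against chow (SE, edgeR adjusted p = 0.726) and -1.77 ± 0.25 (SE, edgeR adjusted p = 0.000882) against scramble.

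Fatty acid synthesis genes had no common direction. Of 19 tested lipogenesis genes 7 rose and 6 fell against chow (median 0.16). Thrsp, a nuclear protein that follows carbohydrate-driven lipogenesis, stood at 18, 11.9 and 19.5 CPM in Gpnmb hairpin livers, against 161, 141 and 151 CPM in scramble livers. Thrsp was at 792, 442 and 43.9 CPM in NASH GFP livers and 131, 226 and 233 CPM in chow livers. All 3 Gpnmb hairpin libraries were below every other library, with -3.56 ± 0.26 (SE, edgeR adjusted p = 1.24e-05) against chow and -3.18 ± 0.15 (SE, edgeR adjusted p = 2.52e-06) against scramble, while NASH GFP library 3 was apart from the other 2. Acss2, which makes acetyl-CoA in the cytosol, had 72.4, 66.7 and 71.8 CPM in Gpnmb hairpin livers, against 196, 208 and 187 CPM in chow livers, a change of -1.47 ± 0.12 (SE, edgeR adjusted p = 3.42e-05). Scd1, the stearoyl-CoA desaturase, had 27267, 18411 and 19116 CPM in Gpnmb hairpin livers, against 3228, 7049 and 5214 CPM in chow livers and rose by 2.08 ± 0.27 (SE, edgeR adjusted p = 0.000522).

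Many male-biased liver genes stood between chow and the other NASH livers. Of 14 tested, 8 fell and 1 rose in Gpnmb hairpin livers against chow (median -1.01), against 12 fallen in scramble livers (median -1.97) and 10 in NASH GFP livers (median -1.81), and 12 of 14 rose under the hairpin against scramble (median 1.34). Cyp7b1, an oxysterol hydroxylase (ENSMUSG00000039519, GRCm38 chromosome 3, 18071950 to 18243338), stood at 221, 319 and 331 CPM in Gpnmb hairpin livers, against 85.7, 70.6 and 76.1 CPM in scramble livers. Cyp7b1 was at 48.3, 89.9 and 125 CPM in NASH GFP livers and 564, 529 and 607 CPM in chow livers. The Gpnmb hairpin libraries lay between chow and the other NASH libraries, with -0.95 ± 0.16 (SE, edgeR adjusted p = 0.00244) against chow and 1.93 ± 0.14 (SE, edgeR adjusted p = 2.04e-05) against scramble. Serpina1e, an alpha-1 antitrypsin, stood at 1238, 1499.6 and 1560.2 CPM in Gpnmb hairpin livers, against 135, 142 and 133 CPM in scramble livers. Serpina1e was at 532, 628 and 846 CPM in NASH GFP livers and 16256, 13295 and 14905 CPM in chow livers. The groups did not overlap, and the changes were -3.36 ± 0.16 (SE, edgeR adjusted p = 7.35e-07) against chow and 3.41 ± 0.10 (SE, edgeR adjusted p = 5.26e-08) against scramble. The Serpina1 genes are near-identical, so their reads may be shared. Slco1a1, an organic anion transporter, stood at 495, 544 and 679 CPM in Gpnmb hairpin livers, against 217, 120.3 and 159.5 CPM in scramble livers. Slco1a1 was at 48.2, 136 and 297 CPM in NASH GFP livers and 583, 634 and 569 CPM in chow livers. Gpnmb hairpin and chow libraries overlapped, with a change of -0.042 ± 0.14 (SE, edgeR adjusted p = 0.872), and it rose by 1.81 ± 0.19 (SE, edgeR adjusted p = 0.000159) against scramble. Selenbp2, in contrast, had 54, 49.7 and 86.3 CPM in Gpnmb hairpin livers, against 1900.3, 1386 and 1723 CPM in chow livers, a change of -4.70 ± 0.24 (SE, edgeR adjusted p = 9.17e-07), and 0.66 ± 0.28 against scramble (SE, edgeR adjusted p = 0.114). Reads of Selenbp2 may be shared with its near-identical neighbour Selenbp1.

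Some other hepatocyte genes fell against chow. Of 15 hepatocyte identity genes 6 fell (median -0.54), and 3 without hairpin library 1. In scramble livers 9 of these genes fell (median -0.54). In NASH GFP livers 2 fell by edgeR (median -0.56) and 9 by DESeq2. The summed level of the 15 genes was 84057 to 87484 CPM in Gpnmb hairpin livers, against 95233 to 132567 CPM in chow livers. It was 72996 to 85010 CPM in scramble livers and 69198 to 83402 CPM in NASH GFP livers. Hnf4a, a master regulator of hepatocytes, stood at 791, 904 and 881 CPM in Gpnmb hairpin livers, against 567, 460.2 and 498 CPM in scramble livers. Hnf4a was at 461, 629 and 777 CPM in NASH GFP livers and 763, 833 and 652 CPM in chow livers. Its change against chow was 0.21 ± 0.14 (SE, edgeR adjusted p = 0.324, 95% interval -0.095 to 0.51), and it rose by 0.78 ± 0.093 (SE, edgeR adjusted p = 0.000322) against scramble. C8b, a complement component, stood at 189.8, 188 and 216 CPM in Gpnmb hairpin livers, against 66.2, 52.1 and 53.6 CPM in scramble livers. C8b was at 54.6, 83.7 and 145 CPM in NASH GFP livers and 652, 549 and 524 CPM in chow livers. Again the Gpnmb hairpin libraries lay in between, with -1.52 ± 0.14 (SE, edgeR adjusted p = 5.13e-05) against chow and 1.81 ± 0.10 (SE, edgeR adjusted p = 5.37e-06) against scramble. In bile acid synthesis and transport 9 of 22 fell and 6 rose (median -0.23), and the 9 became 5 without hairpin library 2. In scramble livers 10 of these 22 fell and 6 rose, and in NASH GFP livers 10 fell and 3 rose. Abcg5, a sterol exporter, had 285, 222 and 325 CPM in Gpnmb hairpin livers, against 77.2, 75 and 80.1 CPM in chow livers, a change of 1.86 ± 0.15 (SE, edgeR adjusted p = 2.99e-05). Cyp2c70, which makes muricholic acids, had 149, 114 and 201 CPM in Gpnmb hairpin livers, against 719.7, 614 and 757 CPM in chow livers, a change of -2.15 ± 0.20 (SE, edgeR adjusted p = 5.13e-05).

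Several chaperones of the endoplasmic reticulum were below chow in Gpnmb hairpin livers and above scramble livers. Of 17 tested unfolded protein and integrated stress genes 8 fell and 2 rose (Dnajb9 and Sesn2), with a median of -0.60 against chow, and 11 of 17 rose under the hairpin against scramble (median 0.60). Dnajb9 lost its call without hairpin library 2, and Sesn2 without hairpin library 1 or 3 or chow library 1 or 3. Without hairpin library 1 the 8 became 5, and with the 4 groups in one fit the 11 became 4. Hsp90b1, an abundant chaperone, stood at 345, 454 and 473 CPM in Gpnmb hairpin livers, against 306, 303 and 309 CPM in scramble livers. Hsp90b1 was at 469, 617 and 385 CPM in NASH GFP livers and 942, 909 and 964 CPM in chow livers. Every NASH library was below every chow library, and the changes were -1.13 ± 0.14 (SE, edgeR adjusted p = 0.00047) against chow and 0.49 ± 0.11 (SE, edgeR adjusted p = 0.00755) against scramble. Sdf2l1, a cofactor of the chaperone BiP, had 8.72, 12.4 and 14.7 CPM in Gpnmb hairpin livers, against 70.7, 44.3 and 57.4 CPM in chow livers, a change of -2.25 ± 0.22 (SE, edgeR adjusted p = 8.43e-05).

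Many acute phase genes were lower in Gpnmb hairpin livers than in chow livers. Of 20 tested, 11 fell and 1 rose (median -0.64), and the 11 became 5 without hairpin library 1, 5 without hairpin library 2 and 7 without hairpin library 3. In scramble livers 8 fell (median -0.58), and in NASH GFP livers 2 rose and 1 fell by edgeR (median 0.052), where DESeq2 called 0 higher and 5 lower. Hp, haptoglobin, stood at 1781, 1857 and 1962 CPM in Gpnmb hairpin livers, against 2515, 2650.2 and 2658 CPM in scramble livers. Hp was at 3056, 4710.3 and 3177 CPM in NASH GFP livers and 3939.7, 2791 and 4119 CPM in chow livers. Hp was lowest in the 3 Gpnmb hairpin libraries, with -0.94 ± 0.16 (SE, edgeR adjusted p = 0.00228) against chow and -0.46 ± 0.077 (SE, edgeR adjusted p = 0.0021) against scramble. Orm1, a plasma carrier protein, had 323, 280.3 and 362 CPM in Gpnmb hairpin livers, against 845, 661 and 861 CPM in chow livers, a change of -1.28 ± 0.15 (SE, edgeR adjusted p = 0.000273). Steap4, a metalloreductase, had 85.7, 87.9 and 94.3 CPM in Gpnmb hairpin livers, against 179, 166 and 161 CPM in chow livers, a change of -0.91 ± 0.12 (SE, edgeR adjusted p = 0.000709) that was lost with the 4 groups in one fit. The Orm and Saa genes are near-identical within their families. Saa1 was at 25, 23.1 and 34.3 CPM in Gpnmb hairpin livers, against widely spread values of 625, 38.2 and 223 CPM in chow livers. Lbp, the lipopolysaccharide binding protein, rose by 0.61 ± 0.13 (SE, edgeR adjusted p = 0.00889) and lost this call without hairpin library 2 or with the 4 groups in one fit.

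Clock genes differed from chow in Gpnmb hairpin livers. Of 18 tested, 8 fell and 1 rose (median -0.52), while 4 rose and 3 fell in scramble livers (median 0.023) and 0 were called in NASH GFP livers by edgeR, DESeq2 and limma-voom, with 2 at an unadjusted p under 0.05 by edgeR (median -0.0087). Against scramble 11 fell and 4 rose under the hairpin, and 7 fell with the 4 groups in one fit. The 8 became 4 without hairpin library 1, 4 without hairpin library 2 and 5 with library size alone. Per3, a period gene (ENSMUSG00000028957, GRCm38 chromosome 4, 151003652 to 151044665), stood at 6.24, 6.47 and 8.92 CPM in Gpnmb hairpin livers, against 40.4, 48.9 and 44.3 CPM in scramble livers. Per3 was at 40.6, 32.1 and 16.7 CPM in NASH GFP livers and 30.4, 26.3 and 15.1 CPM in chow livers. All 3 Gpnmb hairpin libraries were below the other 9, with -1.72 ± 0.26 (SE, edgeR adjusted p = 0.00146) against chow and -2.60 ± 0.14 (SE, edgeR adjusted p = 4.80e-06) against scramble. Dbp, an output transcription factor of the clock, stood at 11.9, 11.7 and 28.2 CPM in Gpnmb hairpin livers, against 103, 121 and 108 CPM in scramble livers. Dbp was at 95.3, 93.2 and 54.5 CPM in NASH GFP livers and 66.7, 71.7 and 56.7 CPM in chow livers. Its 3 Gpnmb hairpin libraries were again the lowest, with -1.90 ± 0.30 (SE, edgeR adjusted p = 0.00168) against chow and -2.66 ± 0.27 (SE, edgeR adjusted p = 0.000131) against scramble. Npas2, a partner of Bmal1 in the positive limb of the clock, went the other way. It stood at 6.6, 6.78 and 5.35 CPM in Gpnmb hairpin livers, against 2.37, 1.5 and 1.19 CPM in scramble livers. Npas2 was at 0.397, 0.814 and 4.36 CPM in NASH GFP livers and 1.46, 1.19 and 3.1 CPM in chow livers. Each Gpnmb hairpin library was above all others, with 1.72 ± 0.35 (SE, edgeR adjusted p = 0.00643) against chow and 1.91 ± 0.27 (SE, edgeR adjusted p = 0.000802) against scramble. The call against chow was lost with the 4 groups in one fit. The labels give no hour of collection, so a difference in hour between groups cannot be told apart from the groups.

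Ciart, a repressor of the clock, had the largest fall of this list against scramble. It stood at 0, 0.526 and 2.32 CPM in Gpnmb hairpin livers, against 20.9, 12.3 and 16.4 CPM in scramble livers. Ciart was at 19.3, 20.4 and 4.03 CPM in NASH GFP livers and 4.19, 7.23 and 3.31 CPM in chow livers. Hairpin library 1 held none of its reads, and all 3 Gpnmb hairpin libraries were below every other library. The change was -4.06 ± 0.56 (SE, edgeR adjusted p = 0.000728) against scramble, and -5.83 without hairpin library 3. Against chow it was -2.33 ± 0.77 (SE, edgeR adjusted p = 0.0604) and was not called. The E-box letters CACGTG, a palindrome that clock activators bind, were present in 4 of 14 clock promoter windows of the kind described above (28.6%), against 1207 of 12967 (9.31%). Ciart holds 3 of them in the 200 bases upstream of its start (chr3:95882252-95882451, minus strand), in capitals here.
Ciart: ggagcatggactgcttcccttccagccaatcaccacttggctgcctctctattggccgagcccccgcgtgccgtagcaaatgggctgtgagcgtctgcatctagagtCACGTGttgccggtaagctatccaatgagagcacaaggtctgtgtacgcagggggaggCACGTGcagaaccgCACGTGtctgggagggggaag
The other 3 windows with a match were those of Bhlhe41, Cry1 and Tef, and the window of Per3 held none.

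Some metabolic genes set the Gpnmb hairpin and scramble livers apart. Igfbp1, an insulin-suppressed binding protein of insulin-like growth factors, stood at 316, 219 and 246 CPM in Gpnmb hairpin livers, against 48.6, 65.5 and 60.1 CPM in scramble livers. Igfbp1 was at 226, 325 and 263 CPM in NASH GFP livers and 82.1, 71.2 and 126 CPM in chow livers. Against chow its change was 1.51 ± 0.21 (SE, edgeR adjusted p = 0.000844) in Gpnmb hairpin livers and 1.59 ± 0.23 (SE, edgeR adjusted p = 0.00128) in NASH GFP livers. In scramble livers it was -0.66 ± 0.20 (SE, edgeR adjusted p = 0.0349), and the scramble libraries were the lowest. Pck1, the rate-limiting enzyme of gluconeogenesis, stood at 4174, 4783 and 5286 CPM in Gpnmb hairpin livers, against 2269, 1774 and 1999.7 CPM in scramble livers. Pck1 was at 2290.2, 2595 and 3043 CPM in NASH GFP livers and 1949, 3748 and 3259 CPM in chow livers. It rose by 1.26 ± 0.12 (SE, edgeR adjusted p = 8.58e-05) against scramble, and its call against chow of 0.68 ± 0.21 (SE, edgeR adjusted p = 0.0477) was lost without any one of hairpin libraries 1, 2 and 3 or chow libraries 1 and 3. Apoa4, an apolipoprotein induced in fatty liver, stood at 1064, 949 and 863 CPM in Gpnmb hairpin livers, against 1509.7, 2136 and 1810.0 CPM in scramble livers. Apoa4 was at 1623, 1252 and 2305 CPM in NASH GFP livers and 49.5, 56.6 and 59.2 CPM in chow livers. Gpnmb hairpin libraries were far above chow and below every other NASH library, with 4.14 ± 0.15 (SE, edgeR adjusted p = 2.54e-07) against chow and -0.90 ± 0.12 (SE, edgeR adjusted p = 0.000757) against scramble.

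Diet-called genes that moved little under the hairpin included Gpat3, Enc1 and Cln6 among the raised and Aox3, Cyp4f14 and Scnn1a among the lowered, all with a change under 0.25 on the log2 scale against scramble. Gpat3, an enzyme of triglyceride assembly, stood at 20.9, 17.5 and 18.7 CPM in Gpnmb hairpin livers, against 18.3, 22.6 and 19.6 CPM in scramble livers. Gpat3 was at 19.7, 28.1 and 23.8 CPM in NASH GFP livers and 3.95, 4.84 and 5.31 CPM in chow livers. All NASH libraries were above chow, with 2.04 ± 0.19 (SE, edgeR adjusted p = 5.36e-05) in Gpnmb hairpin livers against chow. Aox3, an aldehyde oxidase, stood at 391, 315 and 467 CPM in Gpnmb hairpin livers, against 379.6, 356 and 367 CPM in scramble livers. Aox3 was at 299, 302 and 331 CPM in NASH GFP livers and 1201, 1445 and 1117 CPM in chow livers. All NASH libraries were below chow, with -1.67 ± 0.17 (SE, edgeR adjusted p = 0.000124) in Gpnmb hairpin livers against chow. Genes lowered on the diet and lower still under the hairpin included Hes6, a transcriptional regulator, at -1.99 ± 0.13 (SE, edgeR adjusted p = 7.52e-06) against chow and -0.81 ± 0.076 (SE, edgeR adjusted p = 8.84e-05) against scramble. Tlcd2, which acts on membrane lipids, was another, at -1.52 ± 0.13 (SE, edgeR adjusted p = 2.99e-05) against chow and -0.55 ± 0.078 (SE, edgeR adjusted p = 0.000851) against scramble. Acnat2, an acyltransferase of peroxisomes, was raised on the diet and further under the hairpin, at 2.95 ± 0.17 (SE, edgeR adjusted p = 2.18e-06) against chow and 1.09 ± 0.11 (SE, edgeR adjusted p = 0.000121) against scramble.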

How the data were processed

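Liver RNA of 3 samples per group was sequenced from stranded poly(A) libraries, per the labels' protocols. The labels do not state that the 3 are separate animals, so the p-values rest on a spread between libraries that may be technical. The authors deposited raw read counts per gene (GRCm38, mm10, per the submitters' processing notes) in 2 tables that list 23962 and 24671 genes. The aligner, counter, strand setting and handling of shared reads are not named in those notes or labels (not given in the sources used here), so antisense and near-identical genes are uncertain. Per the file headers, the tables also hold other columns by the authors, of which gene names, starts, ends and strands were used and FPKM values and fold changes were not.

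The tables were joined on the gene identifier (22365 genes), and gene symbols turned into dates were restored (21 and 22). Each comparison was fitted on its own 6 libraries with edgeR 4.0.16 in R 4.3.3, using TMM factors, a minimum count of 10, the quasi-likelihood test and Benjamini-Hochberg adjusted p under 0.05. No replicate pair agreed within sampling noise (chi-square per degree of freedom at least 7.34). The method was tested on simulated counts in which few genes changed, evenly up and down, so that test does not cover the choice of scaling. Alternatives were DESeq2 1.42.0, limma 3.58.1, other scaling, no filter, a replicate block, 4 groups in one fit, genes of either table, and each library left out. Scramble against chow livers was not refitted with a library left out. Same-numbered libraries did not deviate together, so the numbers were not used as pairs.

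The members and gene lists were chosen with earlier results of these data known. Named genes are Gpnmb and the 8 highest and 8 lowest changes against chow. From each list they include up to 4 genes by p or by opposite direction. Among genes called on the diet they include up to 6 per pattern of change under the hairpin, or with a change under 0.25 (log2). Other genes named are list members or neighbours of these in role, chosen after their values were seen. Some members of the lists are not reported here.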

Additional observations from a re-analysis of the deposited data

Results flagged for a closer look

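For 16 genes the changes of Gpnmb hairpin livers and of scramble livers against chow were called in opposite directions. Both of these comparisons use the same chow libraries. The value given for each gene is therefore the log2 fold change of Gpnmb hairpin against scramble livers. The difference was also called by edgeR for all 16, but the genes were picked on the same hairpin and scramble libraries. Such a call nearly follows from that choice, so the adjusted p-values given for these genes are not an independent test.

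Of these genes, 7 were higher in Gpnmb hairpin livers. Igfbp1, a binding protein of insulin-like growth factors, differed by 2.19 ± 0.14 (SE, edgeR adjusted p = 1.08e-05). Pitx3, a homeobox gene, differed by 3.19 ± 0.19 (SE, edgeR adjusted p = 6.27e-06), Rpp40, a subunit of ribonuclease P, by 2.17 ± 0.30 (SE, edgeR adjusted p = 0.000752), and Abtb2 by 1.65 ± 0.13 (SE, edgeR adjusted p = 3.69e-05). Wrnip1, which acts at stalled replication forks, differed by 1.26 ± 0.10 (SE, edgeR adjusted p = 3.00e-05). Ccng2, a cyclin that rises in resting cells, differed by 1.18 ± 0.091 (SE, edgeR adjusted p = 3.09e-05), and the calcium pump Atp2a2 by 0.96 ± 0.10 (SE, edgeR adjusted p = 0.000164).

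The other 9 were lower in Gpnmb hairpin livers. The clock genes were Per3 at -2.60 ± 0.14 (SE, edgeR adjusted p = 4.80e-06), Dbp at -2.66 ± 0.27 (SE, edgeR adjusted p = 0.000131) and Per2 at -1.32 ± 0.089 (SE, edgeR adjusted p = 1.15e-05). The call of Per2 against chow, at -0.66 ± 0.21 (SE, edgeR adjusted p = 0.049), was lost with library size alone, with limma-voom, with the 4 groups in one fit and without hairpin library 1, 2 or 3 or chow library 2. The xenobiotic genes were Cyp2b10 at -4.35 ± 0.46 (SE, edgeR adjusted p = 0.000179) and Gstm2 at -1.28 ± 0.075 (SE, edgeR adjusted p = 6.27e-06). Cyp2b10, a cytochrome P450 induced through the receptor CAR, averaged 0.238 ± 0.0694 CPM in Gpnmb hairpin livers, 5.08 ± 2.3 CPM in scramble livers, 5.0 ± 5.26 CPM in NASH GFP livers and 2.16 ± 0.288 CPM in chow livers (SD, n = 3 each). Reads of the Cyp2b and Gstm families may be shared. The remaining changes were -1.89 ± 0.26 (SE, edgeR adjusted p = 0.000802) for Fam126a, -1.62 ± 0.11 (SE, edgeR adjusted p = 1.08e-05) for the pseudogene Mup-ps16, -1.24 ± 0.10 (SE, edgeR adjusted p = 3.85e-05) for the adenosine receptor gene Adora1 and -0.90 ± 0.072 (SE, edgeR adjusted p = 3.77e-05) for Ttc7. The causes of these differences were not tested.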

How the results depend on the processing

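Among the named genes, no change of Gpnmb hairpin against chow livers reversed direction in any alternative that tested it. Reversals were not counted in this way for the other comparisons. Of 115 named genes 110 were called against chow. Of these, 87 kept call and direction in every alternative that tested them, and 102 in every alternative other than leaving out a library. Without at least 1 library, 19 lost the call. Many named genes were picked for a small p or a large change in this same comparison. Their counts follow in part from that choice and do not describe all called genes. With library size alone, 2321 genes were called higher and 799 lower against chow, 1129 diet-raised genes were lower under the hairpin and 110 diet-lowered genes were higher. With the replicate block 146 diet-lowered genes were higher under the hairpin and 34 lower, and 39 diet-raised genes were higher. With the 4 groups in one fit 40 diet-raised genes were higher under the hairpin, and with no low-count filter 88 diet-lowered genes were lower. Leaving out 1 library gave 565 to 1319 genes higher and 684 to 1709 lower against chow. It gave 472 to 748 diet-raised genes lower and 31 to 77 higher under the hairpin, and 123 to 258 diet-lowered genes higher and 29 to 68 lower. Fewer libraries lower the residual degrees of freedom by construction; other causes were not tested. Same-numbered Gpnmb hairpin and chow libraries had deviations correlated at -0.040, -0.029 and -0.050, so the numbers do not pair them. Low counts limit the T, NK and neutrophil lists, with 1 gene tested in each.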

Other observations

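Other gene groups were also set against chow, where 8.33% of all tested genes were called higher in Gpnmb hairpin livers and 9.8% lower. Of 18 xenobiotic and NRF2 genes 8 fell and 2 rose (median -0.53), against 6 fallen and 5 risen in scramble livers and 3 fallen and 5 risen in NASH GFP livers. Cyp1a2, a pericentral cytochrome P450 of drug metabolism, had 201, 189 and 226 CPM in Gpnmb hairpin livers, against 698, 814 and 688 CPM in chow livers, a change of -1.82 ± 0.14 (SE, edgeR adjusted p = 1.58e-05). Of 14 periportal genes 7 fell and 2 rose, against 10 fallen and 1 risen in scramble livers and 9 fallen and 2 risen in NASH GFP livers. Of 12 pericentral genes 5 fell, against 3 fallen and 2 risen in scramble livers and 2 fallen and 1 risen in NASH GFP livers. The 7 periportal genes became 3 without hairpin library 1.

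Of 26 lysosome genes 7 rose, with a median of 0.057, and the 7 became 3 without hairpin library 1 and 4 without hairpin library 2 or 3 or chow library 1, and 4 with the replicate block. Of 24 activin and TGF-beta signalling genes 2 rose, a share near that of all genes, and Inhbe, a hepatocyte-made inhibin subunit, stood at 93.1, 88.7 and 60.9 CPM in Gpnmb hairpin livers, against 148, 178 and 163 CPM in scramble livers. Inhbe was at 90.6, 111 and 128 CPM in NASH GFP livers and 37.4, 61.9 and 41.9 CPM in chow livers. Hairpin library 3 was below chow library 2, and the change against chow was 0.80 ± 0.22 (SE, edgeR adjusted p = 0.0281), a call lost without hairpin library 1 or 2 or chow library 1 or 3. Of 15 immediate early genes 4 fell and 1 rose, and Junb, a subunit of AP-1, had 25.1, 29.9 and 33.9 CPM in Gpnmb hairpin livers, against 80.6, 58.5 and 70.7 CPM in chow livers, a change of -1.22 ± 0.16 (SE, edgeR adjusted p = 0.00064). Of 8 tested biliary genes 2 rose, and the summed level of all 12 on the list was 44.3 to 56.3 CPM in Gpnmb hairpin livers and 33.6 to 41.7 CPM in chow livers. Of 16 p53 target genes 3 rose, 1 without hairpin library 2 or chow library 1, and 6 with library size alone. Of 13 genes encoded by the mitochondrial genome 3 fell, 1 without hairpin library 1, 2 or 3, and 5 without chow library 1. Of 5 B and plasma cell genes 2 fell, and 4 with DESeq2, with no low-count filter or with the 4 groups in one fit. In scramble livers 3 of 6 tested fell, and in NASH GFP livers 1 of 8 rose.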
